A study of Brassica rapa subsp. pekinensis with 6 samples.

Results

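The genes described here are those of Chinese cabbage (*Brassica rapa* ssp. *pekinensis*) that responded to low temperature (LT) in opposite directions in the inbred lines Kenshin and Chiifu. They were selected on their own probe intensity (PI), the brightness of a gene's probes on the Br135K microarray on the linear scale. A gene had to exceed a PI of 500 in at least 1 of 6 samples, and its PI at 12 °C divided by that at 22 °C had to be at least 2 in 1 line and at most 0.5 in the other. Of 41173 genes on the array 26948 passed the intensity minimum, and 73 and 33 of these met the ratio cutoffs in the 2 directions. Leaving out 6 genes by the rule (Bra022225, Bra021258, Bra023541, Bra021464, Bra001043 and Bra008362) gave 100 genes. In 67 genes PI at 12 °C was lower in Kenshin and higher in Chiifu, and in 33 genes it was higher in Kenshin and lower in Chiifu. All 6 genes left out belong to the larger direction.

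Of these lines, Kenshin comes from the warmer climate and serves in breeding for heat tolerance, and Chiifu comes from a temperate one. Plants of each line were grown for about 3 weeks at 22 °C, held at 12 °C for 2 days and then moved to 28 °C for 3 h, and shoots of several plants were pooled for a sample at each step. The labels give 1 sample for each line and temperature and name no agent or transgene. The paper describes repeated experiments and mean values, and whether a deposited value is such a mean is not known. Each line and temperature thus has a single value per gene, no error can be given, and no difference below was tested. Plants sampled at 12 and 28 °C were also older than those at 22 °C, so that age and temperature cannot be told apart. In pooled shoots, fewer cells of a type and less RNA per cell cannot be told apart either, and the tissue was not checked against markers.

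Plants sense a drop in temperature through membrane, calcium and light signalling pathways, and cold then induces protective proteins while growth genes are turned down. Heat shock proteins are chaperones that bind unfolded proteins. The small heat shock proteins (sHSPs) among them are best known for a strong rise with heat, and several are also made during development and under other stresses.

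Genes with opposite responses were few beside those with shared ones. Over all genes above the minimum, PI at 12 °C was at least 2-fold higher than at 22 °C in 5.8% of genes in Kenshin and in 5.36% in Chiifu, and at least 2-fold lower in 6.99% in Kenshin and in 5.01% in Chiifu. Both cutoffs together were passed by 0.271% of genes in the direction lower in Kenshin and higher in Chiifu, and by 0.122% in the reverse direction, before genes were left out. Of the 1884 genes downregulated by LT in Kenshin, 679 were downregulated in Chiifu as well, 1132 changed less than 2-fold there, and 73 were upregulated (3.87%). Of the 1562 genes upregulated by LT in Kenshin, 552 were upregulated in Chiifu and 33 were downregulated (2.11%).

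**Figure D1:**
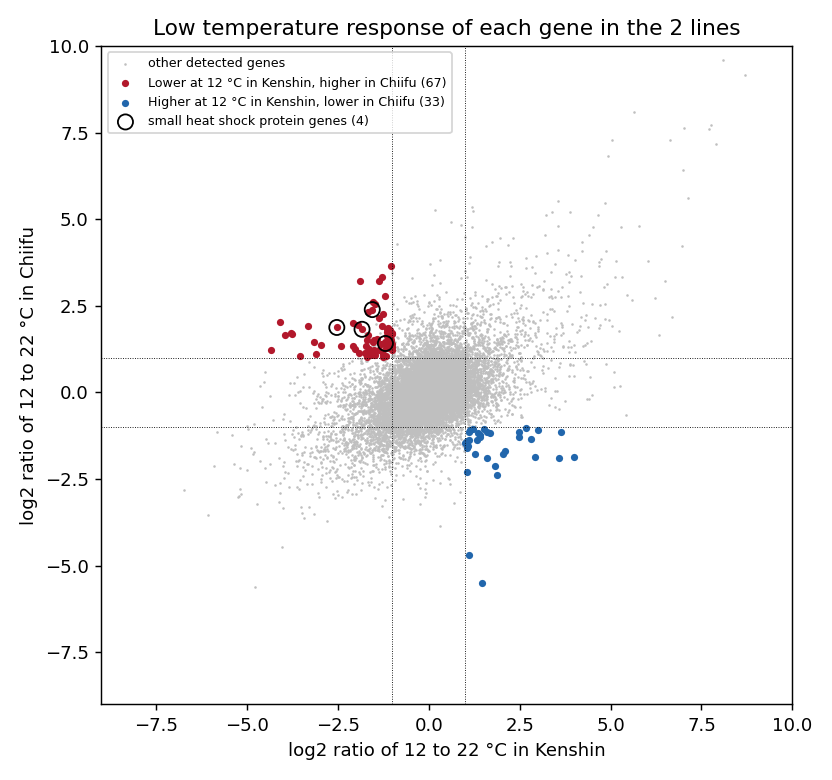
Log2 ratio of PI at 12 to 22 °C in Kenshin (x axis) and Chiifu (y axis) for the 26948 genes above the intensity minimum. Red and blue points are the 67 and 33 genes described here, rings mark 4 small heat shock protein genes, dotted lines mark the 2-fold cutoff, and the 6 genes left out lie among the grey points of the upper left quadrant.

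Only 4 of the 100 genes carry an annotation in the sources used here. All 4 encode sHSPs, and all 4 belong to the 67 genes that were lower at 12 °C in Kenshin and higher in Chiifu. The annotation covers only 90 genes from the paper's lists on warming and heat, 41 of them heat genes, so it favours such names. What the other members encode is not known here. The remaining genes are given by their identifiers in the files.

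The 67 genes lower at 12 °C in Kenshin and higher in Chiifu mostly had their highest PI in Kenshin at 22 °C. Their median PI in Kenshin was 1268, 406 and 426 at 22, 12 and 28 °C, and in Chiifu it was 197, 623 and 282. Over all genes above the minimum the median in Kenshin at 22 °C was 3234, so the 67 genes were dim there too. The sample with the highest PI was Kenshin at 22 °C in 45 of the 67 genes, and the sample with the lowest was Chiifu at 22 °C in 36. The median ratio of 12 to 22 °C was 0.349 in Kenshin and 2.84 in Chiifu, while over all genes above the minimum it was 1.01 and 0.986. These ratios chose the genes and are given as a description.

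The 33 genes higher at 12 °C in Kenshin and lower in Chiifu showed the mirror image of that pattern. Their median PI in Kenshin was 168, 564 and 404 at 22, 12 and 28 °C, and in Chiifu it was 1136, 413 and 678. The highest PI lay in Chiifu at 22 °C in 19 of the 33 genes, and the lowest in Kenshin at 22 °C, also in 19. The median ratio of 12 to 22 °C was 2.85 in Kenshin and 0.387 in Chiifu.

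Few of the genes had a high PI throughout. A PI over 500 in all 6 samples was found for 7 of the 67 genes and 6 of the 33. In a single sample, 12 to 56 of the 67 genes and 7 to 29 of the 33 exceeded 500. Of the 26948 genes above the minimum, 23669 to 24035 did so in a single sample, and their median PI lay between 3179 and 3258. The 67 and 33 genes were thus dimmer than most. At 22 or 12 °C, both lines exceeded 500 in 34 of the 67 genes and in 15 of the 33. PI of a control feature with a random sequence lay between 26.9 and 30.5, and 6 of the 67 genes and 5 of the 33 had a PI at 22 or 12 °C that was not above it on the same array, so that their ratios have no exact size. Marker gene features among the controls read up to 1517, so the random feature is not a floor for every probe. How far the low PI of the 67 and 33 genes contributed to their ratios was not tested.

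Adding 50 to each PI before the ratio, which damps ratios between low values, left 39 of the 67 genes and 24 of the 33 past both cutoffs. With 50 added, the median ratio of 12 to 22 °C over all 67 genes was 0.379 in Kenshin and 2.39 in Chiifu, and over all 33 genes it was 2.32 in Kenshin and 0.422 in Chiifu. In the larger set 54 genes still passed in Kenshin and 49 in Chiifu. In the smaller set 24 still passed in Kenshin and all 33 in Chiifu.

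**Figure D2:**
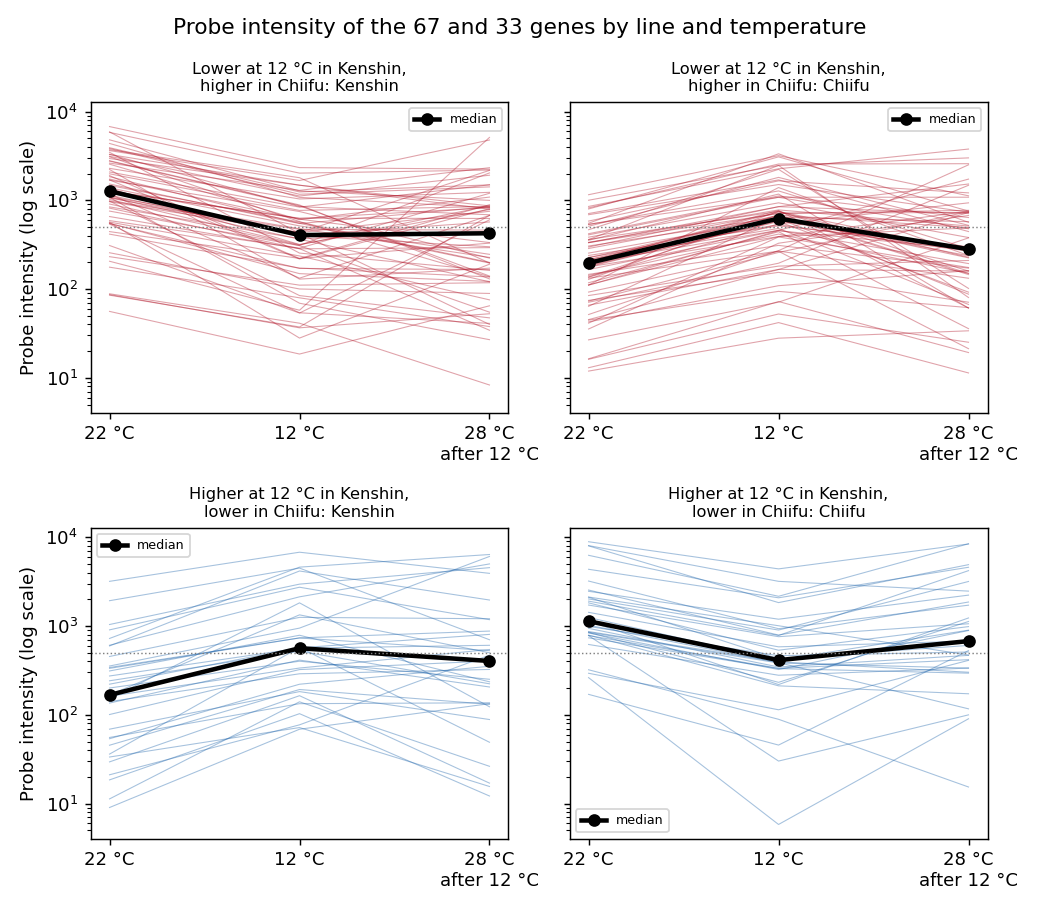
PI (log scale) at 22, 12 and 28 °C in Kenshin (left) and Chiifu (right), for the 67 genes (top, red) and the 33 genes (bottom, blue), each thin line being 1 gene and the black line the median. The dotted line is the intensity minimum of 500. The median of the 67 genes was 1268 in Kenshin and 197 in Chiifu at 22 °C.

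Of the 4 sHSP genes, *BrHSP17.6II* in Kenshin at 22 °C was the only value at 22 or 12 °C over 500. *BrHSP17.6II* (Bra006137), whose *Arabidopsis* counterpart encodes a cytosolic class II sHSP, had PI values in Kenshin of 909, 310 and 2036 at 22, 12 and 28 °C, and in Chiifu of 51.7, 271 and 2513. At 22 °C the gene was 17.58-fold higher in Kenshin than in Chiifu, whereas at 12 °C the ratio of the lines was 1.14. Its ratio of 12 to 22 °C was 0.341 in Kenshin and 5.24 in Chiifu, and 0.375 and 3.16 with 50 added.

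*BrHSP18.2A* (Bra002539), a homolog of a cytosolic class I sHSP gene of *Arabidopsis*, had PI values in Kenshin of 206, 57.8 and 5114 at 22, 12 and 28 °C, and in Chiifu of 73.2, 259 and 747. Kenshin was the higher line at 22 and at 28 °C and the lower at 12 °C. Its ratio of 12 to 22 °C was 0.281 in Kenshin and 3.53 in Chiifu, and 0.421 and 2.51 with 50 added. In the paper's quantitative RT-PCR of this gene, the level at 12 °C was below that at 22 °C in both lines. The rise in Chiifu on the array was thus not seen by that method. Near-identical copies of this gene exist (*BrHSP18.2B* and *BrHSP18.2C*), and how far their transcripts bind its probes was not tested.

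*BrHSP21* (Bra026317), named after the chloroplast sHSP of *Arabidopsis*, had PI values in Kenshin of 310, 53.7 and 603 at 22, 12 and 28 °C, and in Chiifu of 45.3, 166 and 729. *BrHSP22.0* (Bra027999), whose *Arabidopsis* counterpart resides in the endoplasmic reticulum, had 85.4, 37.4 and 677 in Kenshin, and 26.8, 71.3 and 378 in Chiifu. Both genes were higher in Kenshin at 22 °C and higher in Chiifu at 12 °C. With 50 added the ratio of 12 to 22 °C was 0.288 in Kenshin and 2.27 in Chiifu for *BrHSP21*, and 0.646 and 1.58 for *BrHSP22.0*, which then passed in neither line. The value of *BrHSP22.0* in Chiifu at 22 °C was not above the random feature (27.1).

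Within 3 h at 28 °C all 4 sHSP genes were higher than at 12 °C in both lines. *BrHSP17.6II* was 6.57-fold higher in Kenshin and 9.28-fold higher in Chiifu, *BrHSP21* 11.2-fold and 4.39-fold, and *BrHSP22.0* 18.1-fold and 5.30-fold. With 50 added these ratios were 5.80 and 7.99 for *BrHSP17.6II*, 6.29 and 3.61 for *BrHSP21*, and 8.31 and 3.53 for *BrHSP22.0*. The intensity minimum favoured high values at 28 °C in 3 of these genes, since *BrHSP18.2A*, *BrHSP21* and *BrHSP22.0* exceeded 500 at 28 °C alone. Apart from the sHSP genes, 1 gene of the 67 was at least 2-fold higher at 28 than at 12 °C in both lines (3.1% of all genes above the minimum were), Bra037007, noticed after its values were seen, with PI values of 1179, 133 and 676 at 22, 12 and 28 °C in Kenshin and of 71.1, 196 and 1478 in Chiifu. It has no annotation here.

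A list of 41 heat shock, chaperone and heat marker genes named by the study, of which 40 passed the intensity minimum, held these 4 genes (10%). None of the list had the reverse pattern, which 0.122% of all genes above the minimum had, and the 67 genes made up 0.249% of them. As given above, 3 of these 4 genes passed the intensity minimum only in samples of the warmest temperature. The minimum thus favoured genes that are high with heat, so nothing is read from 10% beside 0.249%. By LT, 7 of the 40 were upregulated and 10 downregulated in Kenshin (5.8% and 6.99% of all genes above the minimum), and 6 were upregulated and 3 downregulated in Chiifu (5.36% and 5.01%). The study chose a part of this list on these samples, partly by a high level in Kenshin at 22 °C, so the list is not independent evidence of a direction.

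The 21 sHSP genes of the list did not move together by LT. In Kenshin 9 of the 21 were downregulated and 5 upregulated (6.99% and 5.8% of all genes above the minimum), and in Chiifu 3 were downregulated and 5 upregulated (5.01% and 5.36%). *BrHSP23.6-MITO* (Bra013872), which encodes a mitochondrial sHSP, had a ratio of 12 to 22 °C of 0.269 in Kenshin and 0.971 in Chiifu, and the *HSP20*-like gene Bra029174 had 0.176 and 0.927. *BrHSP18.2B* (Bra020295) was lower at 12 °C in both lines, with ratios of 0.0810 in Kenshin and 0.231 in Chiifu. *BrHSP18.2C* (Bra006697) changed less than 2-fold in either line, with 0.557 in Kenshin and 0.690 in Chiifu. Of the 3 *BrHSP18.2* genes, *BrHSP18.2A* alone had opposite directions past the cutoff on the array. By the paper's quantitative RT-PCR, none of the 3 moved in opposite directions in the lines between 22 and 12 °C. That method showed *BrHSP18.2B* and *BrHSP18.2C* higher at 12 °C than at 22 °C in both lines, where the array showed both lower.

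**Figure D3:**
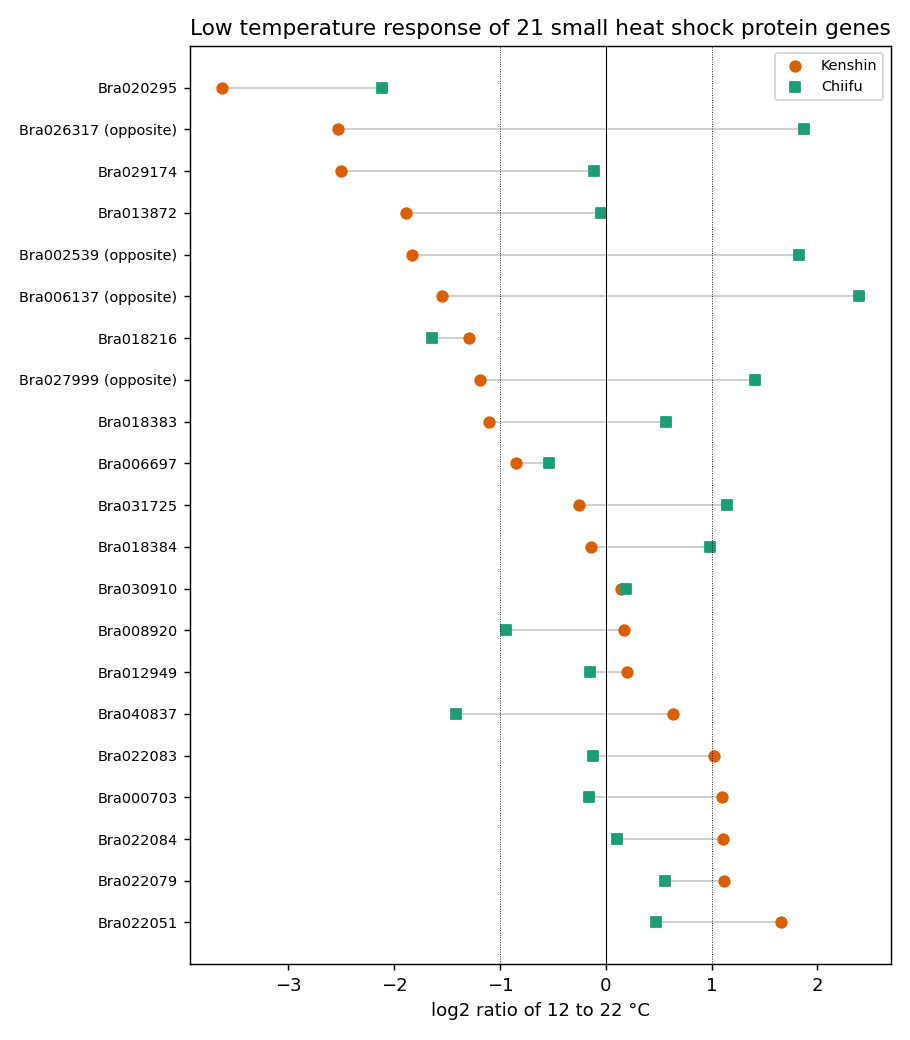
Log2 ratio of PI at 12 to 22 °C in Kenshin (circles) and Chiifu (squares) for 21 sHSP genes, 1 gene to a row, with dotted lines at a 2-fold change. The 4 genes marked opposite lie past the cutoff on both sides, and 9 of the 21 lie at or below 0.5 in Kenshin against 3 in Chiifu.

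Among the other genes lower at 12 °C in Kenshin and higher in Chiifu, 6 had the largest change in the less responsive line with 50 added. Bra004334 had PI values in Kenshin of 3301, 849.5 and 688 at 22, 12 and 28 °C, and in Chiifu of 799, 3089 and 757. It exceeded 500 in every sample, and its values in the lines were close to exchanged between 22 and 12 °C. Its ratio of 12 to 22 °C was 0.257 in Kenshin and 3.87 in Chiifu, and 0.268 and 3.70 with 50 added.

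Bra018538 had PI values in Kenshin of 2225, 129.5 and 172 at 22, 12 and 28 °C, and in Chiifu of 111, 455 and 282. Bra007307 had 2766, 869.6 and 140 in Kenshin, and 137, 686 and 150.5 in Chiifu. Both genes were about 20-fold higher in Kenshin at 22 °C (20.1-fold and 20.2-fold), and neither differed 2-fold between the lines at 28 °C. Bra007307 was lower at 28 °C than at 12 °C in both lines, with ratios of 0.161 in Kenshin and 0.219 in Chiifu.

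Bra013227 was the most strongly lowered of the 6 by the end of the treatment. Its PI in Kenshin was 5908, 424 and 40.0 at 22, 12 and 28 °C, and in Chiifu it was 355, 1176 and 61.0. Bra013226, noted after its values were seen because the pair alone of the 100 genes has consecutive identifiers, had 657, 284 and 293 in Kenshin, and 361, 2475 and 80.4 in Chiifu. The highest PI of Bra013227 lay in Kenshin at 22 °C and that of Bra013226 in Chiifu at 12 °C, and in Chiifu both genes were lower at 28 °C than at 22 °C. Levels of different probes are not compared here.

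Bra034061 had PI values in Kenshin of 1359, 318 and 787 at 22, 12 and 28 °C, and in Chiifu of 136, 541 and 937. Bra025709 had 550.3, 149 and 122 in Kenshin, and 41.3, 387 and 175 in Chiifu, where its ratio of 12 to 22 °C was 9.36, or 4.78 with 50 added. In Bra034061 both lines were higher at 28 °C than at 12 °C, and in Bra025709 both were lower.

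The highest PI of the 67 genes was that of Bra025846, with 6778, 2337 and 2246 at 22, 12 and 28 °C in Kenshin, and 1157, 3188 and 1125 in Chiifu. In Chiifu the gene was back at its value of 22 °C after 3 h at 28 °C (ratio 0.972), whereas in Kenshin it stayed at 0.331 of that value. Bra008442, also above 500 in every sample and named after its values were seen, had 5830, 2026 and 2192 in Kenshin, and 552, 3343 and 565 in Chiifu. It showed the same return in Chiifu (ratio of 28 to 22 °C of 1.02) and none in Kenshin (0.376).

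A minority of the 67 genes peaked in Chiifu. The sample with the highest PI was Chiifu at 12 °C in 9 genes, and 4 of these were lower in Kenshin than in Chiifu already at 22 °C (Bra015094, Bra036465, Bra036924 and Bra007017, the first 2 named after their values were seen). Bra036465 had PI values in Kenshin of 86.7, 36.6 and 52.7 at 22, 12 and 28 °C, and in Chiifu of 466, 2233 and 102. Bra007017 had 88.5, 41.3 and 8.31 in Kenshin, and 384, 937 and 381 in Chiifu. PI of both genes in Kenshin was at most 88.5, and with 50 added the ratio of 12 to 22 °C in Kenshin was 0.634 for Bra036465 and 0.659 for Bra007017.

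Among the genes higher at 12 °C in Kenshin and lower in Chiifu, Bra017011 had the largest change in the less responsive line with 50 added. Its PI in Kenshin was 608, 2136 and 5016 at 22, 12 and 28 °C, and in Chiifu it was 8011, 1839 and 4922. The ratio of Kenshin to Chiifu was 0.0759 at 22 °C, and the lines were nearly equal at 12 and 28 °C (1.16 and 1.02). The ratio of 12 to 22 °C was 3.51 in Kenshin and 0.230 in Chiifu.

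Bra008686 and Bra035993 stood out by a peak in Kenshin at 12 °C. Bra008686 had PI values in Kenshin of 152, 1828 and 123 at 22, 12 and 28 °C, and in Chiifu of 790.5, 212 and 173. Bra035993 had 36.1, 574 and 49.1 in Kenshin, and 322, 89.1 and 15.4 in Chiifu. The ratio of 12 to 22 °C in Kenshin was 12.0 and 15.9, or 9.30 and 7.25 with 50 added, and in both genes PI in Kenshin at 28 °C was again near that at 22 °C.

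Bra010713 and Bra024696 were bright in Chiifu and dim in Kenshin. Bra010713 had PI values in Kenshin of 53.8, 221 and 352 at 22, 12 and 28 °C, and in Chiifu of 1827, 535 and 987. Bra024696 had 45.5, 193 and 131 in Kenshin, and 2548, 792 and 1867 in Chiifu. Kenshin stayed the lower line in both genes at each temperature, so that the lines approached each other at 12 °C without crossing.

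Bra002550 was higher in Kenshin at 22 °C already, unlike most genes of this direction. Its PI in Kenshin was 454, 1254 and 1210 at 22, 12 and 28 °C, and in Chiifu it was 263, 5.82 and 90.3. The value in Chiifu at 12 °C lay below the random feature of that array (26.9), so the ratios that use it have no exact size. At 28 °C Kenshin was 13.4-fold higher than Chiifu, or 8.98-fold with 50 added. Bra020601 and Bra033743 were the only other genes of the 33 higher in Kenshin at 22 °C, with ratios of 1.06 and 1.04, and they were noticed after their values were seen.

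The brightest of the 33 genes were Bra018204 and Bra003189. Bra018204 had PI values in Kenshin of 725.5, 4615 and 6405 at 22, 12 and 28 °C, and in Chiifu of 8924, 4411 and 8413. Bra003189 had 3192, 6798 and 3929 in Kenshin, and 6273, 2167 and 8460 in Chiifu. In Bra018204 the lines were close at 12 °C and at 28 °C, whereas in Bra003189 the order of the lines was turned at 12 °C and turned back at 28 °C. Bra018204 was also among the genes nearest the cutoff, with a ratio of 12 to 22 °C in Chiifu of 0.494.

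Values lay close to the cutoff on both sides of it. Just inside it lay Bra036278, with a ratio of 12 to 22 °C of 0.4997 in Kenshin and 2.66 in Chiifu, and Bra014658, with 0.499 and 3.28. Just outside it lay Bra015572, with 0.501 in Kenshin and 2.13 in Chiifu, and Bra003044, with 0.501 and 2.04. In the reverse direction Bra033885 was just inside, with 2.003 in Kenshin and 0.367 in Chiifu, and Bra020816 and Bra024118 were just outside, with 2.41 and 0.511, and with 1.96 and 0.307.

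The distance between the lines changed with temperature. At 22 °C, PI of 58 of the 67 genes was higher in Kenshin by at least 2-fold and that of 3 lower by as much, where 8.55% and 8.83% of all genes above the minimum were. At 12 °C, 5 of the 67 were at least 2-fold higher in Kenshin and 23 at least 2-fold lower (5.18% and 7.16% of all genes). The values at 22 and 12 °C were used to select the genes, so nothing is read from these counts. The median ratio of Kenshin to Chiifu over the 67 genes was 6.98 at 22 °C and 0.731 at 12 °C, and over the 33 genes it was 0.112 and 1.21. Of the 33 genes, 28 were at least 2-fold lower in Kenshin at 22 °C and none at least 2-fold higher, and at 12 °C 11 were higher and 9 lower.

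In 39 of the 67 genes the order of the lines was exchanged, with Kenshin above Chiifu at 22 °C and below it at 12 °C. Kenshin stayed above in 24 and below in 4. Of the 33 genes, 17 were exchanged from below to above, 13 stayed below and 3 stayed above. The rule makes the ratio of the lines change at least 4-fold between 22 and 12 °C, which favours an exchange. The share over all genes above the minimum was not counted, so nothing is read from these counts. The 5 genes of the larger set at least 2-fold higher in Kenshin at 12 °C as well were Bra006060, Bra010377, Bra014170, Bra028456 and Bra040628, named after their values were seen. Apart from Bra006060, their PI in Chiifu at 22 °C was at most 65.9, and in 3 of them, Bra014170, Bra028456 and Bra040628, it was not above the random feature.

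The ratio of the lines at 28 °C was not used to select the genes. The 28 °C samples did count towards the intensity minimum, and 5 of the 67 genes passed it through them alone (*BrHSP18.2A*, *BrHSP21*, *BrHSP22.0*, Bra011491 and Bra024795), as did 1 of the 33 (Bra009160), the genes without a name being noted after their values were seen. Over the 67 genes the median ratio of Kenshin to Chiifu at 28 °C was 0.942, with 16 genes at least 2-fold higher in Kenshin (23.9%) and 13 at least 2-fold lower (19.4%), where 10.3% and 8.28% of all genes above the minimum were. In this set neither line was the higher as a rule, with 32 genes above and 35 below a ratio of 1. Of the 26948 genes above the minimum, 14210 were above and 12735 below. Over the 33 genes the median was 0.573, with 5 genes at least 2-fold higher in Kenshin (15.2%) and 14 at least 2-fold lower (42.4%). Here 24 of the 33 genes were lower in Kenshin. At 22 °C 30 of the 33 had been lower (12641 of all genes above the minimum), but those values were used to select the genes. Either way up, the lines differed by a median of 1.80-fold over the 67 genes and 2.57-fold over the 33 at 28 °C, while all genes above the minimum differed by a median of 1.298-fold. Median PI of the 67 and the 33 genes at 28 °C was below that of all genes above the minimum, and this comparison was not matched for PI.

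**Figure D4:**
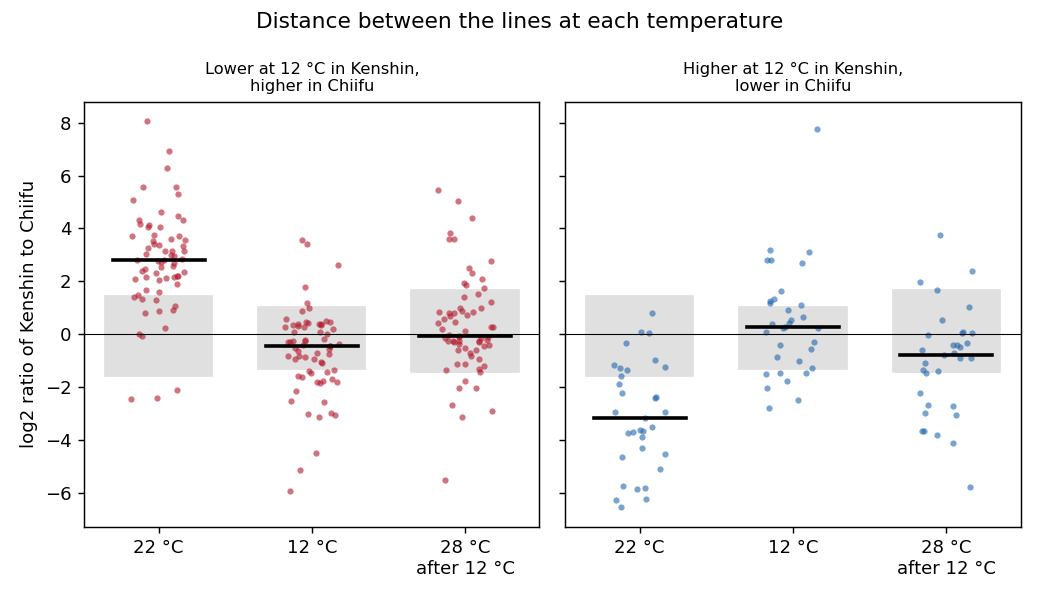
Log2 ratio of Kenshin to Chiifu at 22, 12 and 28 °C for the 67 genes (left) and the 33 genes (right), with 1 point per gene, black bars for medians and grey boxes for the range that holds the middle of all genes above the intensity minimum (5th to 95th percentile). The median ratio on the linear scale was 6.98, 0.731 and 0.942 over the 67 genes and 0.112, 1.21 and 0.573 over the 33.

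Bra006060 and Bra028456 were the genes of the 67 highest in Kenshin over Chiifu at 28 °C with 50 added. Bra006060 had PI values in Kenshin of 3635, 1673 and 4781 at 22, 12 and 28 °C, and in Chiifu of 204, 741 and 228, so that Kenshin was higher at every temperature and the change at 12 °C was undone in both lines. Bra028456 had 1990, 769.8 and 853 in Kenshin, and 16.4, 72.4 and 19.3 in Chiifu, where the values at 22 and 28 °C were not above the random feature. Bra007017, given above, and Bra036924 were the lowest, although PI of Bra007017 in Kenshin at 28 °C (8.31) was not above the random feature (27.4), so that its rank has no exact meaning. Bra036924 had 56.0, 18.5 and 64.8 in Kenshin, and 306, 645 and 575 in Chiifu.

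Of the 33 genes, Bra002550 and Bra022535 were the highest in Kenshin over Chiifu at 28 °C with 50 added. Bra022535 had PI values in Kenshin of 274, 563.5 and 607 at 22, 12 and 28 °C, and in Chiifu of 1023, 387 and 117. Its order was thus turned between 22 and 12 °C and stayed turned at 28 °C. The lowest were Bra024696, given above, and Bra004976, with 18.5, 103 and 12.2 in Kenshin and 1428, 584 and 678 in Chiifu. In Bra004976 the values of Kenshin at 22 and 28 °C were below the random feature.

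After 3 h at 28 °C the median of the 67 genes was near that of 12 °C in Kenshin and lower in Chiifu. Ratios of 28 to 12 °C share the 12 °C samples with the selection, and whether the lines differed in them was not tested. The selection on the 12 °C values favoured a rise in Kenshin and a fall in Chiifu, so nothing is read from the counts. Between 28 and 12 °C, 14 of the 67 genes were at least 2-fold higher in Kenshin and 17 at least 2-fold lower (7.26% and 6.52% of all genes above the minimum), and 36 changed less than 2-fold. In Chiifu, 7 were at least 2-fold higher and 35 at least 2-fold lower (6.96% and 10.2%). In 19 genes PI changed less than 2-fold in Kenshin while it fell at least 2-fold in Chiifu, and in 14 genes it fell in both lines (6.6% and 3.22% of all genes above the minimum). The median ratio of 28 to 12 °C over the 67 genes was 0.994 in Kenshin and 0.487 in Chiifu, and over all genes above the minimum it was 1.003 and 1.03.

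Among the 33 genes the medians of both lines moved towards their values at 22 °C. The selection on the 12 °C values favoured such a return, so nothing is read from it. Between 28 and 12 °C, 14 of the 33 were at least 2-fold lower in Kenshin and 3 higher (6.52% and 7.26% of all genes above the minimum). In Chiifu 14 were at least 2-fold higher and 3 lower (6.96% and 10.2%). The median ratio over the 33 genes was 0.681 in Kenshin and 1.85 in Chiifu. In 4 genes (0.115% of all genes above the minimum) PI fell at least 2-fold in Kenshin and rose at least 2-fold in Chiifu, namely Bra009160, Bra020601, Bra023850 and Bra030170, named after their values were seen. Bra023850 was the brightest of them, with 1932, 4503 and 702 in Kenshin at 22, 12 and 28 °C, and 4365, 2083 and 4600 in Chiifu. The 3 genes higher at 28 than at 12 °C in both lines were Bra017011, Bra018160 and Bra018463, the last 2 named after their values were seen. Bra018160 had 355, 949 and 6089 in Kenshin, and 1910.5, 785 and 4215 in Chiifu.

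In the larger set the reverse, a rise at 28 °C in Kenshin with a fall in Chiifu, was found in 2 genes (0.375% of all genes above the minimum), Bra006060 and Bra010560, the second named after its values were seen. Bra010560 had PI values in Kenshin of 1025, 315 and 868 at 22, 12 and 28 °C, and in Chiifu of 537, 1081 and 478. Both lines were thus near their value of 22 °C again.

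**Figure D5:**
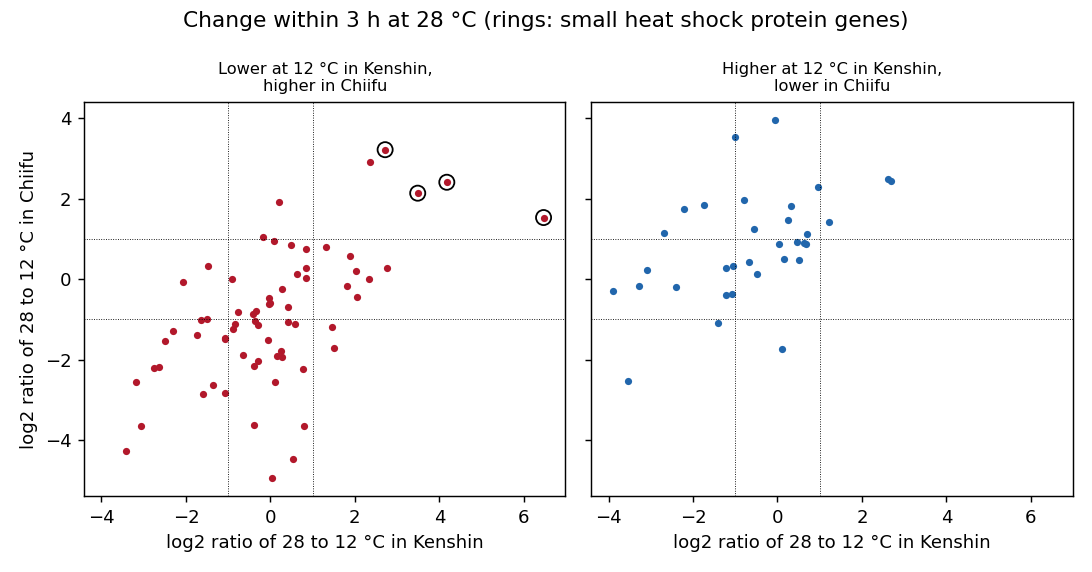
Log2 ratio of PI at 28 to 12 °C in Kenshin (x axis) and Chiifu (y axis) for the 67 genes (left) and the 33 genes (right), 1 point per gene, with dotted lines at a 2-fold change. The 4 ringed sHSP genes lie in the upper right, higher at 28 °C in both lines, while 35 of the 67 genes lie at or below 0.5 in Chiifu.

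Ratios of 28 to 22 °C share the 22 °C samples with the selection, which required a value at 22 °C in Kenshin at least 2-fold above that at 12 °C in the 67 genes and so favoured a ratio below 1 there. By the same rule it favoured a ratio above 1 in Chiifu in the 67 genes, and the reverse of both in the 33. The ratios are given as a description. In Kenshin 45 of the 67 were at least 2-fold lower than at 22 °C, 17 changed less than 2-fold and 5 were at least 2-fold higher (7.34% of all genes above the minimum were lower and 6.27% higher), and the median ratio was 0.348. The 5 higher genes were *BrHSP17.6II*, *BrHSP18.2A*, *BrHSP22.0*, Bra001986 and Bra026279, the last 2 named after their values were seen. Of these, *BrHSP18.2A* and *BrHSP22.0* had passed the intensity minimum through their values at 28 °C alone. In Chiifu 28 of the 67 were at least 2-fold higher and 8 at least 2-fold lower (5.69% and 8.51%), with a median ratio of 1.38. Of the 33 genes, 19 were at least 2-fold higher in Kenshin and 2 lower, and in Chiifu 2 were higher and 13 lower, with median ratios of 2.33 and 0.540. At 28 °C, 15 of the 67 genes were at least 2-fold lower than at 22 °C in Kenshin and at least 2-fold higher in Chiifu (0.442% of all genes above the minimum), and 6 of the 33 were higher in Kenshin and lower in Chiifu (0.527%).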

How the data were processed

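RNA labelled with Cy3 was hybridized to the Br135K microarray, a 3′ tiling array with overlapping 60-mer probes designed on the gene models of Chiifu. Whether Kenshin transcripts match these probes equally well was not tested. The authors deposited 1 linear probe intensity for each gene and sample. The submitters' processing notes name RMA without settings, and labelling and background correction followed an earlier publication. The genome build was not given in the sources used here. Quartiles of the deposited intensities were nearly equal between the samples. The record's design text mentions repeats and withdrawal of water, neither of which the labels give. All 6 columns were mapped to samples and 0 were left over.

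Intensities were used as deposited, with ratios of 2 values of the same gene, in Python 3.11.15 (numpy 2.4.6, pandas 2.3.3 and, for figures, matplotlib 3.10.9). With 1 sample per line and temperature no test was run, and precision is limited by how few arrays there are. Genes were selected by a 2-fold cutoff and an intensity minimum of 500. The genes named are those the paper annotates and, per direction, the 6 with the largest smaller change with 50 added, the 2 brightest, the 2 highest and 2 lowest in Kenshin over Chiifu at 28 °C with 50 added, and the 2 just inside and outside the cutoff. The members and lists were chosen with earlier results of these data known. Alternatives were other cutoffs and minimums, 50 added, quantile normalization and median scaling. The selection was tested on simulated data. The changes put into those data lay well past the cutoff, so this checks the calculation and says nothing about the members. Gene names come from the paper, since no Bra identifier was paired with a name in the reference used here.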

Additional observations from a re-analysis of the deposited data

Results flagged for a closer look

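Opposite movement of the lines drew attention to several results, and none of these differences was tested. By LT it is the selection itself, with 67 genes lower in Kenshin and higher in Chiifu and 33 genes the other way. From 12 to 28 °C, PI rose at least 2-fold in Kenshin and fell as much in Chiifu in 2 of the 67 genes. It fell in Kenshin and rose in Chiifu in 4 of the 33 (0.375% and 0.115% of all genes above the minimum). From 22 to 28 °C, 15 of the 67 were at least 2-fold lower in Kenshin and higher in Chiifu (0.442%). The reverse was found in 6 of the 33 (0.527%). These ratios share the 12 or 22 °C samples with the selection, which favoured each of these directions, so nothing is read from the counts.

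A signal also appeared among control features that entered no comparison. The marker gene feature sGFP_Barcds000006 read 585, 214 and 1116 in Kenshin at 22, 12 and 28 °C, and 234, 154 and 255 in Chiifu, where the random feature read at most 30.5. Of 14 such features, 0 passed the cutoffs in opposite directions, while their ratio of 12 to 22 °C spanned 0.357 to 1.62 in Kenshin and 0.652 to 2.01 in Chiifu.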

How the results depend on the processing

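The count lower in Kenshin and higher in Chiifu was 39 with 50 added, 12 at a 3-fold cutoff, 295 at 1.5-fold, 34 with the minimum in each line at 22 or 12 °C, and 270 without a minimum. The reverse count was 8 at a 3-fold cutoff, 221 at 1.5-fold, 15 with the minimum in each line, and 209 without a minimum. Quantile normalization and median scaling kept all 52 counts within 1.5 times their value. So did a minimum of 1000, a minimum at 22 or 12 °C and, chosen after seeing the data, values above the random feature for both directions. Quartiles of the samples were nearly equal as deposited, so quantile normalization and median scaling had little to change.

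A 3-fold cutoff lowered counts at 28 °C. Over the 67 genes, 11 were lower in Kenshin and 21 in Chiifu than at 12 °C, 2 were higher in Kenshin and 16 in Chiifu than at 22 °C, and 7 were lower in Kenshin than in Chiifu. Over the 33 genes, 8 were lower in Kenshin and 9 higher in Chiifu than at 12 °C, and against 22 °C, 11 were higher and 0 lower in Kenshin and 1 was higher and 7 lower in Chiifu. With 50 added, 5 of the 67 were lower in Chiifu and 1 of the 33 lower in Kenshin at 28 than at 22 °C. Of 192 ratios of named genes, 13 moved by over 1.5 times, all with 50 added, and none changed direction. Adding 50 cannot move a ratio across 1, so that setting could not have changed a direction. No paired analysis was possible because each line and temperature has 1 sample. The low PI of many members and the single sample limit every ratio.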
